A study of Arabidopsis thaliana with 8 samples.

Results

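Transcripts of 4 Arabidopsis thaliana genes were followed between plants that overexpress PK12 and non-transformed plants. They were the LAMMER kinase gene AME3 (AT4G32660), the U2AF large-subunit genes ATU2AF65A (AT4G36690) and AT1G60900, and the ethylene signalling gene EIN3 (AT3G20770). Every expressed sequence tag (EST, a cDNA fragment printed as one spot) that the platform annotation gives to one of these genes alone was taken. That gave 8 ESTs, which lie on both array types of the study, among 8829 ESTs listed on the arrays for 21 days and 11965 on those for 10 days. ATU2AF65A had 4 of them, EIN3 2, and AME3 and AT1G60900 1 each. All 8 had a value on every array, so all 4 genes are among the 2913 named genes tested at 21 days and the 3517 tested at 10 days.

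Each of the 8 arrays carried total RNA of both kinds of plant, PK12 plants in channel 2 and non-transformed plants in channel 1. Plants had grown under long days for 21 days (4 arrays) or 10 days (4 arrays of the other type). The promoter behind PK12, the number of lines, the background strain and the organs taken are not stated in the labels. The 4 arrays of an age come from 2 independent experiments per the labels, which do not tie arrays to experiments, so part of the spread behind the p-values may be technical. No EST is annotated as the PK12 transgene, so its overexpression was not checked here.

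LAMMER kinases are named for a conserved motif of their catalytic domain and phosphorylate serine and arginine-rich (SR) splicing factors. PK12 was described from tobacco as such a kinase, with a transcript and an activity that respond to ethylene. U2AF binds the 3′ splice site early in spliceosome assembly: its large subunit contacts the polypyrimidine tract and its small subunit the AG at the intron end. EIN3 is the transcription factor at the end of the ethylene signalling chain, kept in check by protein turnover and stabilised by the hormone.

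Values are log2 ratios between the channels of one array, with the array's median ratio set to 0. The sources do not say which channel was divided by which, so values are given by their sign alone. A positive value would mean a higher level in PK12 plants if channel 2 was the numerator, and a lower one otherwise. In total RNA of plants, whose sampled organs are not stated, fewer cells of a type and less RNA per cell cannot be told apart. Pearson's r between pairs of arrays, across ESTs, lay between -0.067 and 0.385 at 21 days and between 0.281 and 0.638 at 10 days. The files hold no intensities, so the brightness behind a ratio is unknown.

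None of the 4 genes passed the test for a difference from equal channels at either age. At 21 days 0 of 4 passed, where 0% of all genes did, and at 10 days 0 of 4, where 13.1% did (limma, Benjamini-Hochberg adjusted p under 0.05 over all genes). At an unadjusted p under 0.05, 0 of the 4 passed at 21 days, against 9.13% of all genes, and 2 at 10 days (EIN3 and AT1G60900), against 32.1%. At 21 days 0 of 8 ESTs passed after adjustment and 0 without it, with 0% and 10.1% of all ESTs. At 10 days 1 of 8 passed after adjustment, an EST of EIN3, with 17% of all ESTs, and 3 of 8 without it, with 34.4%.

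**Figure D1:**
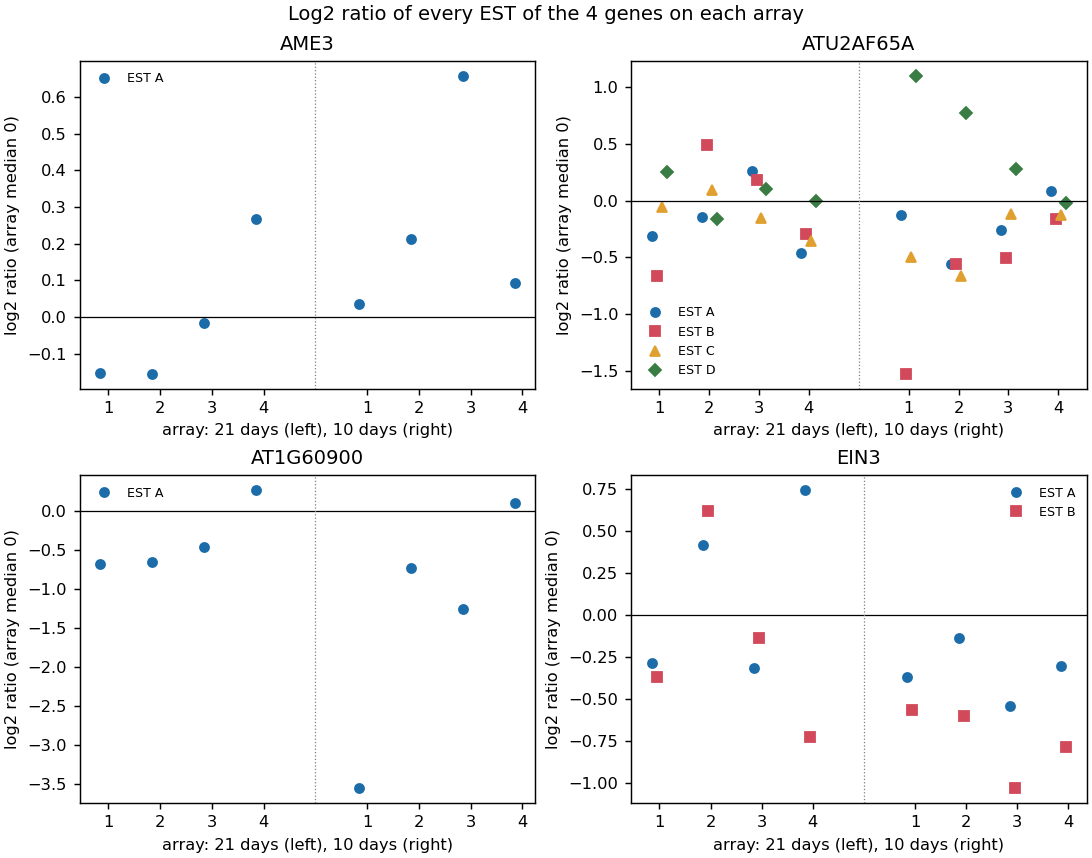
Log2 ratio of each EST on each array, one panel per gene, with 21-day arrays left and 10-day arrays right of the dotted line; colours and shapes mark ESTs and each panel has its own scale. ESTs A, B and C of ATU2AF65A lie at or below 0.08 at 10 days while EST D reaches 1.10, and both ESTs of EIN3 lie below 0 on every 10-day array.

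AME3, an Arabidopsis relative of PK12 within the LAMMER family, had ratios near those of equal channels at both ages. Its single EST read -0.15, -0.16, -0.02 and 0.27 on the 21-day arrays, against 0.03, 0.21, 0.66 and 0.09 on the 10-day arrays. The sign was split at 21 days and positive on all 4 arrays at 10 days, where array 3 stood highest, and the ranges of the ages overlapped. The mean was -0.015 ± 0.20 at 21 days and 0.25 ± 0.28 at 10 days (SD, n = 4 arrays each).

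The 95% intervals of the AME3 mean from limma ran from -0.44 to 0.41 at 21 days and from -0.16 to 0.66 at 10 days. On 10-day array 3 the median of the 36 spots on either side in the order of EST identifiers, which stands in for position on the slide, was 0.36. On the other 10-day arrays it was -0.06, 0.20 and -0.05. Without array 3 the 10-day mean was 0.11, and with neighbour medians removed from every EST it was 0.14 (limma adjusted p = 0.77 and 0.447).

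ATU2AF65A, the U2AF large-subunit gene with 4 ESTs (A to D in the order of their identifiers, which is the same on both array types), had small gene means. Averaged over ESTs, it read -0.20, 0.07, 0.10 and -0.28 on the 21-day arrays, against -0.26, -0.25, -0.15 and -0.06 on the 10-day arrays. All 4 arrays were negative at 10 days and 2 of 4 at 21 days, and the ranges overlapped. The mean was -0.08 ± 0.19 at 21 days (95% interval -0.51 to 0.35) and -0.18 ± 0.10 at 10 days (-0.54 to 0.18; SD, n = 4 each). The SD at 10 days was lower than that of all but 2.42% of genes. The ranking was over all genes, also those with 1 EST, and averaging over 4 ESTs can itself lower an SD.

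That narrow spread at 10 days was the average of ESTs that lay on opposite sides. EST B read -0.67, 0.49, 0.18 and -0.30 at 21 days, against -1.53, -0.56, -0.51 and -0.16 at 10 days. EST D read 0.25, -0.16, 0.10 and -0.01 at 21 days, against 1.10, 0.77, 0.28 and -0.03 at 10 days. At 10 days array 1 held both the lowest value of EST B and the highest of EST D, and on array 4 both lay near 0.

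EST A of ATU2AF65A read -0.31, -0.15, 0.26 and -0.46 at 21 days, against -0.13, -0.56, -0.26 and 0.08 at 10 days. EST C read -0.06, 0.09, -0.16 and -0.35 at 21 days, against -0.50, -0.67, -0.12 and -0.13 at 10 days. EST C was thus on the negative side on all 10-day arrays, as was EST B, and EST A on 3 of them. None of the 4 ESTs passed over all ESTs at 10 days (limma adjusted p = 0.456 for A, 0.0997 for B, 0.234 for C and 0.155 for D) or at 21 days (0.85 to 0.963). If arrays 1 and 4 are taken as a pair, as a random block or averaged, B, C and D passed at 10 days (limma adjusted p from 0.000843 to 0.032). Many genes passed with that pairing, 2021 of 3517 as a block and 1533 averaged, against 459 without pairing. The estimated correlation within its pairs, over genes, was -0.796, and a negative value lowers the standard error in the block fit. Across ESTs, r was 0.369 between arrays 1 and 4 and 0.281 between arrays 2 and 3, the lowest values at 10 days. The labels do not say which arrays share an experiment.

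The 4 ESTs of ATU2AF65A had means from -0.16 to 0.05 at 21 days and from -0.69 to 0.53 at 10 days. The span of those means was 0.21 at 21 days, the smallest among the 39 genes with 4 ESTs on that array type, whose median span was 0.55. At 10 days it was 1.22, larger than in 81.4% of the 70 genes with 4 ESTs, whose median span was 0.74. ESTs on both sides of 0 were common among these genes, with 74.4% at 21 days and 64.3% at 10 days. EST D lay above the mean of the other ESTs by 0.59, -0.30, 0.01 and 0.36 on the 21-day arrays, against 1.82, 1.37, 0.57 and 0.04 on the 10-day arrays. The contrast of EST D with the others was chosen after its values were seen and is given without a test.

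The reference gene table (assembly TAIR10.1) lists 4 RefSeq transcripts for ATU2AF65A and 4 for AME3, against 1 each for AT1G60900 and EIN3. Which transcripts each EST can detect was not analysed here. The median of the neighbouring spots beside EST D was 0.05, -0.25, 0.21 and -0.13 on the 10-day arrays. Beside EST B it was -0.43, 0.55, -0.21 and 0.22. With the neighbour median removed, EST B passed at 10 days (mean -0.73, limma adjusted p = 0.0394). That removal also raised the number of genes passing at 10 days from 459 to 802.

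AT1G60900, the second U2AF large-subunit gene, had the lowest mean of the 4 genes at both ages, on 1 EST. It read -0.67, -0.66, -0.45 and 0.27 on the 21-day arrays, against -3.55, -0.73, -1.25 and 0.11 on the 10-day arrays. At each age 3 arrays were negative and array 4 was positive, and the ranges overlapped. The mean was -0.38 ± 0.44 at 21 days and -1.36 ± 1.57 at 10 days (SD, n = 4 each), which at 10 days is a 2.56-fold departure from equal channels.

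The 95% interval of the AT1G60900 mean ran from -0.87 to 0.12 at 21 days (limma adjusted p = 0.65) and from -2.63 to -0.08 at 10 days (limma adjusted p = 0.136). Only 0.739% of genes had a mean as low or lower at 10 days. Its SD was larger than or equal to that of 98.3% of genes with 1 EST at 10 days, and of 48.3% at 21 days. Without array 1 the 10-day mean was -0.63 (limma adjusted p = 0.248).

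**Figure D2:**
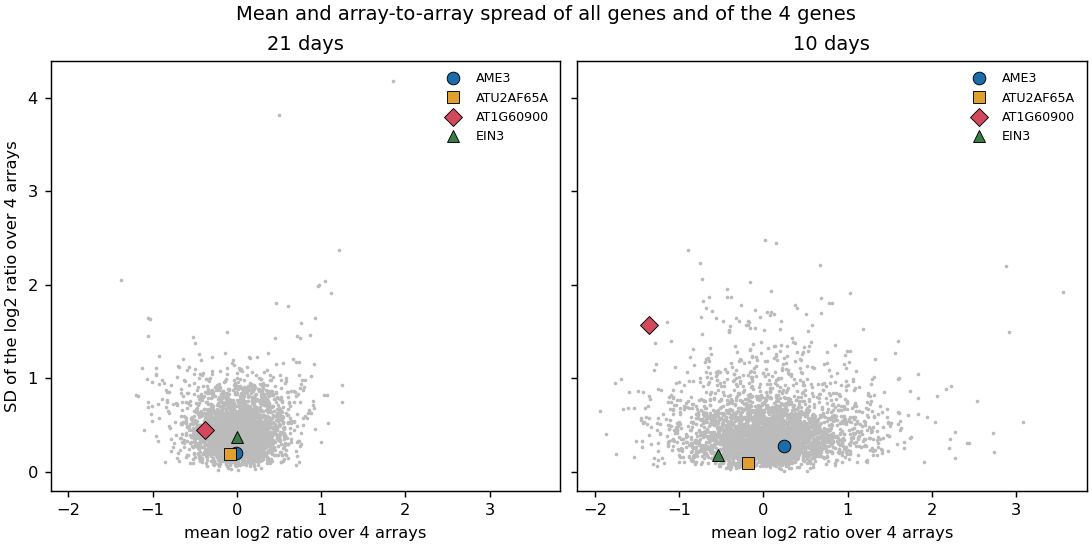
Mean log2 ratio over 4 arrays (x) and SD over the same arrays (y) for all named genes (grey) and the 4 genes described here, 21 days left and 10 days right. At 10 days AT1G60900 stands at a mean of -1.36 with an SD of 1.57, while ATU2AF65A (SD 0.10), EIN3 (0.18) and AME3 (0.28) lie in the low-SD part of the cloud. ATU2AF65A and EIN3 are averages of 4 and 2 ESTs.

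Spots beside AT1G60900 were low on 2 of the 10-day arrays on which it was low. Their median was -0.37, -0.20, -0.04 and -0.03 on the 21-day arrays, against -0.95, 0.54, -1.16 and 0.26 on the 10-day arrays. On 10-day arrays 1 and 3 only 0.309% and 0.937% of spots had a lower neighbour median. On arrays 2 and 4 of that age the neighbours were high, with 97.3% and 93.4% of spots lower, although AT1G60900 was low on array 2. The EST differed from its neighbours by -0.31, -0.46, -0.41 and 0.30 on the 21-day arrays, against -2.61, -1.27, -0.09 and -0.16 on the 10-day arrays. Relative to its neighbours the EST was negative on all 4 arrays of 10 days, and on array 3 it stood close to them. With the neighbour median removed from every EST, the mean of AT1G60900 was -0.22 at 21 days and -1.03 at 10 days (limma adjusted p = 0.129 at 10 days). The neighbour values of AT1G60900 were taken up after its ratios were seen.

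**Figure D3:**
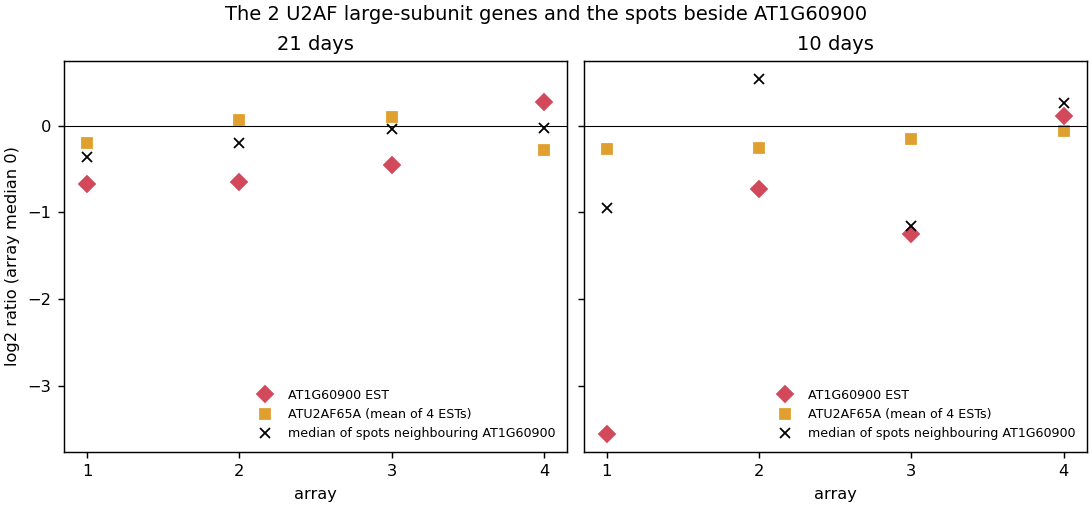
Log2 ratio on each array of the AT1G60900 EST (diamonds), of ATU2AF65A averaged over 4 ESTs (squares) and of the spots beside AT1G60900 (crosses, median of 36 on either side), 21 days left and 10 days right. At 10 days AT1G60900 spans -3.55 to 0.11 and its neighbours -1.16 to 0.54, while ATU2AF65A stays between -0.26 and -0.06.

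The 2 large-subunit genes were compared within arrays. AT1G60900 minus ATU2AF65A was -0.47, -0.72, -0.55 and 0.55 on the 21-day arrays and -3.29, -0.48, -1.10 and 0.17 on the 10-day arrays. AT1G60900 was the lower on 6 of 8 arrays, array 4 of each age being the exception. The mean difference was -0.74 ± 1.15 (SD, n = 8) and did not pass (p = 0.0781, exact two-sided sign-flip permutation test). That test takes all 8 arrays as independent, while the labels give 2 independent experiments per age, so its p-values may be too small. The smallest p that 4 arrays allow is 0.125, and the exact permutation p was 0.5 at 21 days and 0.25 at 10 days. It passed in 1 of the 8 fits that leave out an array, that without array 4 of 21 days, which lay on the other side (-0.92, exact permutation p = 0.0313). Without array 1 of 10 days it was -0.37 (exact permutation p = 0.156), and with neighbour medians removed -0.51 (exact permutation p = 0.133).

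EIN3 had ratios on the negative side on every 10-day array and on both sides of 0 at 21 days. Averaged over its 2 ESTs it read -0.33, 0.52, -0.22 and 0.01 on the 21-day arrays, against -0.46, -0.37, -0.78 and -0.54 on the 10-day arrays. In this average the highest 10-day array (-0.37) lay just below the lowest 21-day array (-0.33), so the ages did not overlap. Each of the 2 ESTs taken alone did overlap between the ages. Gene averages without overlap were found for 14.5% of all genes measured at both ages and for none of the other 3 genes. The mean was -0.0035 ± 0.38 at 21 days and -0.54 ± 0.18 at 10 days (SD, n = 4 each), a 1.45-fold departure at 10 days.

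At 10 days the 95% interval of EIN3 ran from -0.92 to -0.16, and the gene missed the threshold over all genes (limma adjusted p = 0.0661). At 21 days the interval ran from -0.48 to 0.47 (limma adjusted p = 0.995). The SD of EIN3 at 10 days, an average over 2 ESTs, was among the lowest 11.6% of all genes, those with 1 EST included.

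Both ESTs of EIN3 (A and B, again in the order of identifiers) shared the side at 10 days. EST B read -0.37, 0.62, -0.13 and -0.72 at 21 days, against -0.56, -0.60, -1.03 and -0.79 at 10 days. EST A read -0.28, 0.42, -0.31 and 0.75 at 21 days, against -0.36, -0.13, -0.54 and -0.30 at 10 days. EST B was the lower on each 10-day array, and on 21-day array 4 the ESTs were far apart on opposite sides.

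EST B of EIN3 was the one EST of the 8 that passed at 10 days, with a mean of -0.74 ± 0.21 (SD, n = 4), a 1.67-fold departure (limma adjusted p = 0.0341). It no longer passed when array 1, 2, 3 or 4 was left out (limma adjusted p = 0.0711, 0.0736, 0.117 and 0.116). Its mean stayed between -0.80 and -0.65 in these fits. The number of genes passing fell too, from 459 to between 99 and 195. EST A had a mean of -0.34 ± 0.17 at 10 days and did not pass (limma adjusted p = 0.228), except with arrays 1 and 4 as a pair (0.00655 as a random block, 0.0369 averaged). With that pairing 2021 and 1533 genes passed, against 459 without pairing. The span between the 2 EST means was 0.29 at 21 days and 0.41 at 10 days, close to the medians of 0.29 and 0.38 among the 468 and 688 genes with 2 ESTs. Spots beside EST B had a median of -0.05, -0.0015, 0.40 and -0.12 on the 10-day arrays, so on array 3 the EST was lowest where its neighbours were highest.

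**Figure D4:**
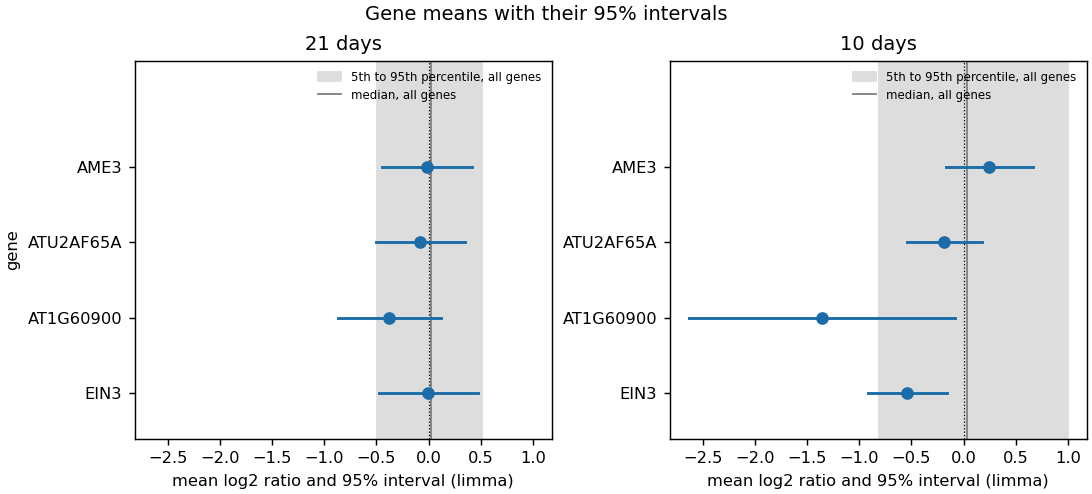
Mean log2 ratio of each gene (point) with its 95% interval from limma (line), 21 days left and 10 days right; the grey band holds the middle 90% of all gene means and the grey line is their median. At 21 days all 4 intervals span 0, and at 10 days those of AT1G60900 (-2.63 to -0.08) and EIN3 (-0.92 to -0.16) lie below 0, although neither gene passed after adjustment.

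Over the members together, 0 of 4 genes had one sign on all arrays at 21 days, where 8.31% of all genes were negative and 8.51% positive throughout. At 10 days ATU2AF65A and EIN3 were negative on all 4 arrays, as 17% of all genes were, and AME3 was positive on all 4, as 22.7% were. By EST, 4 of 8 were negative on all 4 arrays at 10 days (2 of ATU2AF65A and 2 of EIN3), where 21.1% of all ESTs were. At 21 days 0 of 8 were, where 8.78% of all ESTs were. ESTs of a gene share that gene's transcripts and are not independent.

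The ratios of the 2 ages were compared by limma on gene means over all 8 arrays. Age changes together with array type, so their effects cannot be told apart, and each age has a deposited table of its own. None of the 4 genes passed, where 3.47% of 2913 genes did. EIN3 differed most in relation to its error, by 0.54 (21 minus 10 days; 95% interval -0.05 to 1.12; limma adjusted p = 0.258). AT1G60900 differed by 0.98 (-0.35 to 2.31; adjusted p = 0.366), and by 0.25 without array 1 of 10 days. The difference was -0.26 for AME3 (-0.82 to 0.29; limma adjusted p = 0.586) and 0.10 for ATU2AF65A (-0.41 to 0.62; adjusted p = 0.842).

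Other genes of the same pathways were few among the named ESTs. Of 60 genes listed as LAMMER and SR protein kinases, U2AF and branch-site factors, SR proteins and other splicing factors, 7 were measured at 21 days and 8 at 10 days, 3 of them members. SR proteins, the substrates of LAMMER kinases, had 0 of 20 genes among the named ESTs, and AME3 was the one kinase measured of 8. At 21 days none of the 7 passed, with 0% of all genes, and all had negative means, as 47.2% of all genes did (median -0.09, against 0.02 over all genes). At 10 days 1 of 8 passed, on the positive side, with 13.1% of all genes passing, and 4 had negative means, as 46.9% of all genes did (median -0.04, against 0.04 over all genes). The shares at 10 days, with the members included, were near those of all genes. Without the 3 members, 4 genes were left at 21 days, all with negative means (median -0.15). At 10 days 5 were left, of which 1 passed and 2 had negative means (median 0.07).

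The gene that passed was AT4G02840, which encodes SmD1b, a core protein of spliceosomal snRNPs. It read -0.39, -0.10, -0.51 and 0.16 on the 21-day arrays, against 1.66, 1.11, 0.71 and 0.33 on the 10-day arrays (mean -0.21 ± 0.30 and 0.95 ± 0.57, SD, n = 4 each; limma adjusted p = 0.786 and 0.0453). AT3G07590, which encodes the paralog SmD1a, had an EST on the 10-day type alone and read -2.06, -0.93, -0.75 and -0.41 there. Its mean of -1.04 ± 0.71 (SD, n = 4) missed the threshold over all genes (limma adjusted p = 0.0541). In the fit over all ESTs at 10 days, where 17% passed, the EST of each paralog passed (limma adjusted p = 0.0464 for AT3G07590 and 0.0403 for AT4G02840). The paralogs thus lay on opposite sides on all 4 arrays of 10 days, each on 1 EST, and array 1 held the value farthest from 0 for both. This pair was singled out after its values were seen.

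ATO, a subunit of the U2 snRNP factor SF3a, was at -0.09 ± 0.69 at 21 days and -0.15 ± 0.12 at 10 days (SD, n = 4 each). AT1G60200, a relative of the splicing regulator RBM25, was at -0.27 ± 0.29 over 3 ESTs at 21 days and 0.07 ± 0.30 over 4 ESTs at 10 days. AT4G32420, a cyclophilin with an SR-like domain, was at -0.05 ± 0.41 at 21 days and 0.47 ± 0.93 at 10 days. None of these 3 passed at either age (limma adjusted p from 0.392 to 0.955). Of 38 genes listed for ethylene signalling and response, EIN3 alone was measured.

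Markers of tissues were read on the same arrays. The 5 measured photosynthesis markers of 7 listed averaged 0.16, -0.37, -0.09 and -0.23 on the 21-day arrays, against -1.30, -1.54, -1.03 and -1.31 on the 10-day arrays, where all 5 passed on the negative side. PYK10, an abundant root beta-glucosidase, ranged from 0.20 to 0.91 over the 21-day arrays and from -0.41 to -0.11 over the 10-day arrays, and passed at neither age. The seed protein gene PAP85, the one measured of 3 seed markers, ranged from -0.39 to 0.04 at 21 days. It read 0.73, 1.23, 4.70 and 4.85 on the 10-day arrays, where it passed on the positive side (limma adjusted p = 0.0485). The part of these markers in the ratios of EIN3, AT1G60900 and the other members was not tested.

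Genes with the profile most like each member were found by Pearson's r over the 8 arrays among 2912 other genes, as a description. Points share arrays, and the ages differ in array type. AT1G60900 was most like AT5G05570 (r = 0.987), AT5G43560 (0.971) and AT4G35720 (0.956), whose lowest values were -3.29, -1.19 and -1.69. EIN3 was most like LigB (0.974), AT3G05160 (0.972) and AT1G12930 (0.963), with 10-day means of -0.80, -0.55 and -0.48. ATU2AF65A was most like UBA1A (0.941), AT5G48500 (0.883) and AT3G57930 (0.882). AME3 was most like AT4G12280 (0.898), the linker histone gene HIS1-3 (0.845) and AT3G11450 (0.83).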

How the data were processed

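The authors' deposited columns hold log10 ratios between channels, a scale judged from the values. Ratios below 3 (10 raised to the value) were tested for lying on a 3-decimal grid. Within 0.01 grid steps all values did on 7 arrays (100%), but 89.4% did on array 1 of 10 days. Most values of that array (96.9%) are cut to 2 decimals, so its test used 367 others near 0. The tolerance was then widened to 0.03 steps, at which 100% did on every array, and 7.36% on array 1 of 10 days if base 2 was assumed. Column medians lay near 0 as deposited. Scanner, dyes, background correction, spot filters and numerator are not stated in the labels, and ratios can carry dye bias.

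Values were converted to log2, centred on each array's median, and kept for ESTs with all 4 arrays of an age. ESTs that the platform annotation gives to 1 gene were matched by Entrez identifier to the TAIR10.1 gene list (3905 of 3910 at 21 days, 5209 of 5216 at 10 days) and averaged by gene. Another 54 and 73 ESTs had several genes, and 4865 and 6676 had none. Limma 3.58.1 in R 4.3.3 (statmod 1.5.0) fitted each age, and the difference between ages, over all genes or ESTs with Benjamini-Hochberg adjustment at 0.05. Text names covered the members, measured genes of 8 lists (109 genes) and the 3 most similar profiles per member. The gene list has no descriptions, so name rules for splicing, ethylene and LAMMER genes were run on symbols and synonyms, and found ATU2AF65A and EIN3 among measured genes. Members and lists were chosen with earlier results of these data known. Scripts were tested on simulated data. Alternatives were other normalizations, removal of neighbour medians, robust eBayes, EST medians, pairings of arrays and leaving out each array.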

Additional observations from a re-analysis of the deposited data

How the results depend on the processing

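The ratios of the 4 genes at each age stayed on their side of the threshold without centring, with quantile normalization, scaling, removal of the neighbour median, robust eBayes and EST medians. Their differences between ages did so without centring, with the neighbour median removed, with ESTs on both array types alone and with an array left out, and were not refitted otherwise. With pairs of arrays as a random block or averaged into 2 samples, AT1G60900 at 10 days (-1.36) passed in 4 of the 6 fits and EIN3 at 10 days (-0.54) in 2 (both with arrays 1 and 4 together). Those of AT1G60900 were every averaged fit and the random block with arrays 1 and 4 together. Averaging leaves 2 values per gene and drops the spread between paired arrays, and the SD of AT1G60900 over 4 arrays was 1.57. EIN3 EST B at 10 days lost its call in 3 of the 6 (limma adjusted p from 0.0686 to 0.185), and ATU2AF65A ESTs B, C and D and EIN3 EST A gained one in the 2 fits with arrays 1 and 4 together. The estimated correlation at 10 days was -0.064, 0.204 and -0.796 for array 1 paired with 2, 3 and 4, and the labels do not say which pairing holds. A negative estimate lowers the standard error in the random-block fits. At 21 days 0 genes passed, and 48 with array 1 averaged with 2. Genes past the threshold at 10 days numbered 459, against 802 with the neighbour median removed, 263 with array 1 paired with 3 as a random block, 2021 and 1533 with array 1 paired with 4 as a block and averaged, and 99 to 195 with an array left out. Between ages 101 passed, 169 with the neighbour median removed and 40 to 92 with an array left out. The sign of EIN3 at 21 days turned to 0.066, and that of ATU2AF65A EST D to -0.044, with the neighbour median removed. Leaving out an array moved the 21-day means of AME3 over -0.11 to 0.032, of ATU2AF65A over -0.14 to -0.011, of EIN3 over -0.18 to 0.10, of ATU2AF65A ESTs B and D over -0.26 to 0.12 and -0.021 to 0.11, and of EIN3 ESTs A and B over -0.059 to 0.29 and -0.41 to 0.041. It moved the 10-day means of AME3 over 0.11 to 0.32 and of AT1G60900 over -1.85 to -0.63, and AT1G60900 minus ATU2AF65A over -0.92 to -0.37, with the exact permutation p at 0.0313 without array 4 of 21 days. The cause of these changes was not tested. No paired analysis was possible because the labels give no replicate numbers that tie arrays of one age to arrays of the other.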
